A study of Mus musculus with 6 samples.

Results

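Genes of the smooth muscle contractile apparatus and of its cytoskeleton were followed in mouse lungs exposed to interleukin-13 (IL-13), a type 2 cytokine. The list held 39 genes: actin and the proteins of the actin thin filament, myosin subunits, regulators of myosin phosphorylation, intermediate filament proteins, proteins that anchor actin to the membrane, and LIM domain and caveola proteins. Its members were every probe set of the deposited value table whose platform gene symbol was on the list. That gave 89 probe sets of 38 genes, out of 45037 probe sets and 18193 named genes. Rock2, a kinase that acts on the myosin phosphatase, was on the list and was not analysed here.

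Adult BALB/c mice of 3 genotypes gave whole lung RNA for 6 Affymetrix mouse expression arrays. Wild type (WT) mice had both receptor alleles, IL4R KO mice were IL4R -/-, and IL4R KO + SMP8-IL4R mice were IL4R -/- and carried the SMP8-IL4R transgene as +/-. The last group is called transgenic from here on. Its receptor is driven by SMP8, a promoter given by the design text as specific to smooth muscle and otherwise known as a fragment of the smooth muscle alpha-actin gene Acta2. Every mouse, controls included, received 2 to 3 µg of IL-13 into the trachea once a day for 7 days, and the lungs were removed 24 hours later. No untreated lung was analysed here, so each difference is between genotypes under IL-13. Each array held a pool of RNA from 4 mice, with 2 pools per genotype and 24 mice in all, and p-values therefore measure the spread between pools. In whole lung, fewer smooth muscle cells and less RNA per smooth muscle cell cannot be told apart.

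The IL-4 receptor alpha chain, read by 3 Il4ra probe sets, was no check of the labels here, since the position of the probes relative to the deleted part was not known. The brightest of them read 9.35 and 9.55 on the log2 scale in the IL4R KO pools, 9.64 and 9.81 in WT, with 9.98 and 9.84 in the transgenic pools. The second read 8.92 and 8.93, 9.23 and 9.29, and 8.94 and 8.80, so that WT alone stood above IL4R KO. The third, an x_at probe set, read 6.73 and 7.03, 7.14 and 6.95, and 6.77 and 6.95, which overlapped. The lung markers Sftpc, a surfactant protein, and Scgb1a1, a club cell secretory protein, read 14.73 to 14.76 and 14.60 to 14.75 over the 6 pools, and a second Sftpc probe set read 5.74 to 6.40. IL4R KO pool 1 and WT pool 2 stood apart by liver transcripts: albumin (Alb) read 12.26 and 11.81 there, against 5.68 to 5.93 in the other 4 pools. The IL4R KO pools also differed in sex-linked transcripts. The Y-linked Eif2s3y read 9.18 in pool 1 and 4.27 in pool 2, against 8.49 to 8.95 in the other genotypes, and Xist read 7.93 and 11.40, against 10.08 to 11.02. Their part in the comparisons with IL4R KO was not tested beyond leaving out each pool. Results are given below without single pools, or without both of these, where that changes a call.

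Smooth muscle shortens when myosin heads pull on actin filaments that are held at dense bodies inside the cell and at dense plaques on the membrane. Calcium and calmodulin activate myosin light chain kinase, which phosphorylates the regulatory light chain, while a phosphatase, itself held in check by other kinases, removes the phosphate. Many genes of this apparatus are driven by serum response factor, which binds the CArG box, together with its coactivator myocardin. In the lung these genes mark the smooth muscle around airways and vessels, and IL-13 acting through the IL-4 receptor alpha chain is known to increase airway contraction.

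Promoter sequences are shown for the members whose window held a CArG box, the sequence that serum response factor reads, because it is a feature the list was not built on. Acta2 is shown beside them for its near matches, since it is a defining smooth muscle gene. The box was searched as CC, 6 bases each A or T, then GG, a pattern that is its own reverse complement. The windows ran from 250 bases before to 50 after the start of each gene in RefSeq (mouse build GRCm38.p6, from the reference strain and not from BALB/c). Of the 38 measured members, 33 had a window, and Actg2, Tagln, Myh11, Rock1 and Nexn had no entry. The box was found in 5 of 33 members (15.2%), against 488 of 27025 genes (1.81%). These were Myl9, Cnn2, Myl6, Vcl and Fhl1, 1 of which (Myl9) had a probe set that passed the test in a comparison. Among members with a passing probe set the share was 1 of 7 (14.3%), and among the others 4 of 26 (15.4%). A box with 1 of its 6 middle bases G or C, a pattern chosen after the data were seen, was found in 3 of 7 members with a passing probe set (Acta2, Myl9 and Lpp) and in 2 of 26 others (Pdlim3 and Synm, not printed). Over all genes its share was 9.69%. A match describes these letters and shows no binding. In the stretches below, read 5′ to 3′ on the strand of the gene, capitals mark the boxes. Acta2 has 2 boxes with such a single G or C (chr19:34255374-34255482, minus strand), Myl9 has 1 full box and 1 with a single G (chr2:156775278-156775399, plus strand), and Cnn2 (chr10:79988519-79988578, plus strand), Myl6 (chr10:128493025-128493084, minus strand), Vcl (chr14:20929148-20929205, plus strand) and Fhl1 (chrX:56779556-56779615, plus strand) have 1 full box each.
Acta2: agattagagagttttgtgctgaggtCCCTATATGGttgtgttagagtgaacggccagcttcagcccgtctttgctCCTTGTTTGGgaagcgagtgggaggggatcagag
Myl9: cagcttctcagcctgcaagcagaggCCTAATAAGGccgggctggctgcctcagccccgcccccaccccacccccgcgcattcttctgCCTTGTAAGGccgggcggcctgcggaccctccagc
Cnn2: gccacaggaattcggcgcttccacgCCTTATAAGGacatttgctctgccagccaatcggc
Myl6: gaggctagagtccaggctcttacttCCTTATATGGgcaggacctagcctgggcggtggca
Vcl: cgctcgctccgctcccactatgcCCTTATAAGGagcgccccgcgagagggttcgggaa
Fhl1: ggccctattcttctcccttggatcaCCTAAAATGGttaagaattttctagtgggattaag

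In WT against IL4R KO lungs, genes for smooth muscle actins, tropomyosin, transgelin, myosin and the anchoring proteins Synpo2 and Lpp rose, by between 1.31-fold and 2.02-fold. Of the 72 member probe sets tested, 11 rose and 0 fell by limma at an adjusted p under 0.05. Over all 22510 probe sets tested, 1.79% rose and 1.32% fell. At an unadjusted p under 0.05, 25 member probe sets were higher and 3 lower, against 8.55% and 11.7% of all probe sets. The 11 probe sets belonged to 10 genes: Acta2, Actg2, Tpm2 (2 probe sets), Tagln, Myh11, Myl9, Mylk, Mrvi1, Lpp and Synpo2. With each gene read by its brightest probe set, 8 of 38 rose, against 2.14% of all 11597 genes tested, and 0 fell, against 1.51%. At an unadjusted p under 0.05, 14 member genes were higher and 1 (Synm) lower, against 9.02% and 12.4% of all genes. With only the 4 arrays of these 2 genotypes, 2 member probe sets passed, and calls over all 22510 probe sets went from 701 to 284. Fewer probe sets passed without either WT pool, among members as over the whole array. More passed without either IL4R KO pool, again in both, and Prkg1 (1449876_at) was called lower without IL4R KO pool 2. Actg2 passed without every single pool and Synpo2 without every pool except WT pool 1 (adjusted p = 0.0572), while the other 9 probe sets failed without each single WT or transgenic pool. Without both pools that held liver transcripts, Tagln, Myl9, Mylk (1425504_at), Mrvi1 and Lpp (1438271_at) no longer passed. More probe sets passed in that fit, among members as over the whole array.

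In transgenic against IL4R KO lungs, the gamma-enteric actin Actg2 rose 2.80-fold, the actin-associated protein Synpo2 2.48-fold and 1 probe set of beta-tropomyosin (Tpm2) 1.67-fold. These 3 of the 72 tested member probe sets were among 8 that rose on the whole array, where 0.0355% of probe sets rose and 0.0178% fell. No member fell at an adjusted p under 0.05 by limma, and 40 were higher and 1 lower at an unadjusted p under 0.05, against 8.0% and 5.39% of all probe sets. By the brightest probe set, 2 of 38 genes rose, against 0.0517% of all genes, and 0 fell, against 0.0259%. At an unadjusted p under 0.05, 22 member genes were higher (6.54% of all genes) and 0 lower (4.98%). With only the 4 arrays of these 2 genotypes, which is also the fit without either WT pool, 0 of all 22510 probe sets passed. The 3 calls were lost without either transgenic pool too. More probe sets passed without either IL4R KO pool, among members as over the whole array. The differences are between group means, which the choice of filter or of variance estimate does not change. With pools left out or arrays centred, Actg2 lay between 1.46 and 1.51 and Synpo2 between 1.24 and 1.38 on the log2 scale. The Tpm2 probe set lay between 0.70 and 0.79.

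In transgenic against WT lungs, Actg2 was the member that rose, by 1.38-fold. That was 1 of 72 probe sets and 1 of 38 genes, against 0.631% of all probe sets and 0.595% of all genes higher. No member fell, against 1.28% and 1.69% lower. At an unadjusted p under 0.05 by limma, 19 member probe sets were higher and 0 lower, against 10.8% and 6.68% of all probe sets. On the same count, 14 member genes were higher, against 9.66% of all genes, and 0 were lower, against 7.21%. This call was lost without any single transgenic or WT pool. With only the 4 arrays of these 2 genotypes, 5 of the 72 member probe sets passed. Calls over all 22510 probe sets went from 431 to 1738 in that fit, which is also the fit without either IL4R KO pool. In this comparison, leaving out an IL4R KO pool changes the estimate of the spread and not the differences. With other pools left out or arrays centred, Actg2 remained higher by 0.44 to 0.50 on the log2 scale.

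**Figure D1:**
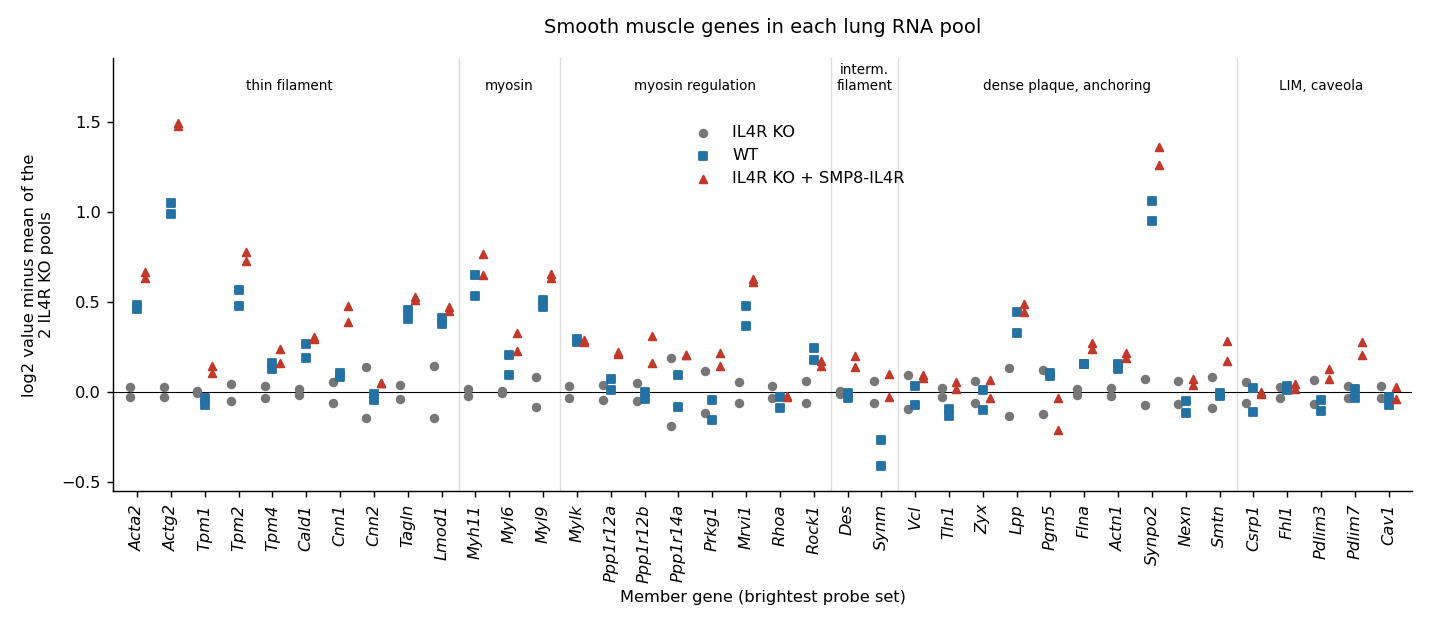
Each point is 1 lung RNA pool, plotted on the y axis as its log2 value minus the mean of the 2 IL4R KO pools, for the brightest probe set of each of the 38 measured genes, grouped by role along the x axis. Actg2 and Synpo2 lie highest in both receptor-bearing genotypes, while Csrp1, Fhl1 and Cav1 lie close to 0.

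The median difference of the 38 member genes was 0.07 on the log2 scale in WT minus IL4R KO (quartiles -0.04 and 0.36), against -0.02 for all genes tested. It was 0.21 in transgenic minus IL4R KO (quartiles 0.07 and 0.45), against 0.00, and 0.13 in transgenic minus WT (quartiles 0.06 and 0.20), against 0.03. Values above 0 were found for 22, 34 and 35 of the 38 genes in the 3 comparisons, and for 21, 34 and 35 once each array was centred on its own median. The comparisons with IL4R KO share its 2 pools, so their values are set side by side and not taken as separate support. The 2 IL4R KO pools also differed more from each other than the pools of the other genotypes. The difference between the 2 pools had an SD over the member genes of 0.138 in IL4R KO, 0.0783 in WT and 0.0636 in the transgenic group, and over all genes tested of 0.287, 0.167 and 0.167.

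**Figure D2:**
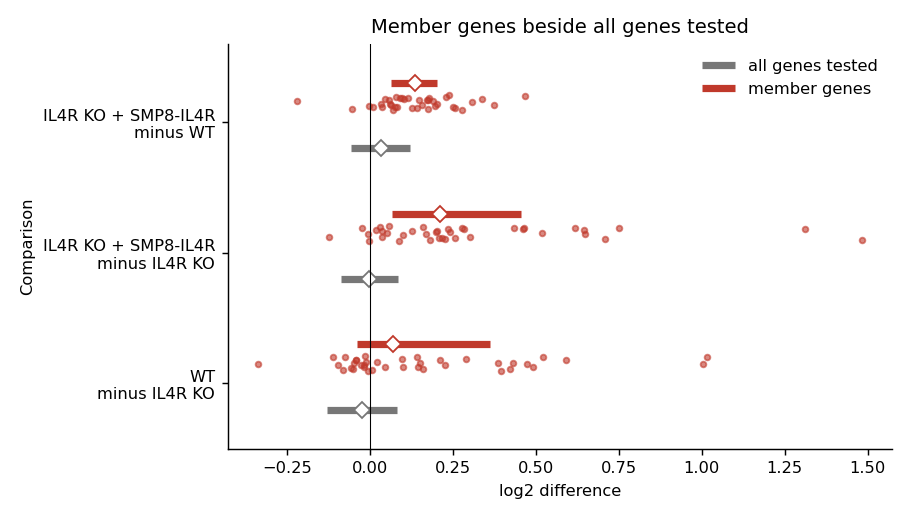
Log2 differences of the 38 member genes (red points) in the 3 comparisons, with bars from the lower to the upper quartile and a diamond at the median for member genes (red) and for all 11597 genes tested (grey). The median of the members is 0.07 in WT minus IL4R KO, 0.21 in transgenic minus IL4R KO and 0.13 in transgenic minus WT.

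Of the thin filament genes, Actg2 differed most in each of the 3 comparisons by the brightest probe sets. Actg2, the gamma-enteric smooth muscle actin (1422340_a_at), read 9.88 and 9.93 on the log2 scale in the IL4R KO pools, 10.89 and 10.95 in WT, with 11.38 and 11.39 in the transgenic pools. The 3 genotypes did not overlap, with IL4R KO lowest and the transgenic group highest. It rose by 1.02 in WT over IL4R KO (SE 0.07, limma adjusted p = 0.0015), by 1.48 in transgenic over IL4R KO (SE 0.07, adjusted p = 0.0068) and by 0.47 in transgenic over WT (SE 0.07, adjusted p = 0.027).

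Acta2, the smooth muscle alpha-actin that is the main actin of vessel and airway muscle (1416454_s_at), read 12.89 and 12.95 in IL4R KO, 13.40 and 13.38 in WT, with 13.55 and 13.58 in the transgenic pools. Again no pool of a genotype overlapped another genotype. Acta2 rose 1.39-fold in WT over IL4R KO (log2 difference 0.47, SE 0.06, adjusted p = 0.019). In transgenic over IL4R KO its difference of 0.65 (SE 0.06) just missed the threshold (limma adjusted p = 0.057), and in transgenic over WT it was 0.17 (adjusted p = 0.24). Both other Acta2 probe sets were too dim to test. 1444105_at was higher than IL4R KO by 0.80 in WT and 1.13 in the transgenic group, and 1456658_at by 0.47 and 0.26. Whether the Acta2 probe sets read bases carried by the SMP8 construct was not tested.

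Tpm2 encodes beta-tropomyosin, which lies along the actin filament. Its brightest probe set, 1419738_a_at, read 11.36 and 11.46 in IL4R KO, 11.97 and 11.89 in WT, with 12.14 and 12.18 in the transgenic pools. The second, 1425028_a_at, read 10.52 and 10.51, 11.02 and 10.97, and 11.21 and 11.30. In both, the 3 genotypes kept the same order with no overlap. Both rose in WT over IL4R KO, by 0.52 and 0.48 (limma adjusted p = 0.021 for each). In transgenic over IL4R KO the differences were 0.75 and 0.74, and the adjusted p was 0.056 for 1419738_a_at, which did not pass, and 0.0495 for 1425028_a_at, which did. The adjusted p of 1425028_a_at was 0.225 without either WT pool.

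Tagln encodes transgelin (SM22), an actin-binding protein used as a smooth muscle marker. It read 11.98 and 12.06 in IL4R KO, 12.42 and 12.47 in WT, with 12.53 and 12.55 in the transgenic pools, with no overlap. Tagln rose by 0.43 in WT over IL4R KO (SE 0.07, limma adjusted p = 0.028), and differed by 0.52 in transgenic over IL4R KO (adjusted p = 0.12) and 0.09 in transgenic over WT (adjusted p = 0.54).

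Calponin 1 (Cnn1), which binds actin and restrains the myosin ATPase, had another pattern. Its pools read 10.40 and 10.51 in IL4R KO, 10.54 and 10.56 in WT, with 10.84 and 10.93 in the transgenic group. The WT pools lay just above the IL4R KO pools, and the transgenic pools stood above both genotypes. The difference was 0.09 in WT over IL4R KO (limma adjusted p = 0.52), 0.43 in transgenic over IL4R KO (adjusted p = 0.19) and 0.34 in transgenic over WT (adjusted p = 0.092), and none passed. Without either IL4R KO pool Cnn1 passed in transgenic over WT (adjusted p = 0.030).

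The other thin filament genes did not pass in any comparison. Lmod1, a leiomodin that nucleates actin filaments, differed by 0.39 in WT and 0.46 in transgenic over IL4R KO. Cald1, caldesmon, differed by 0.23 and 0.30. Tpm4 differed by 0.14 and 0.20, and Tpm1, alpha-tropomyosin, by -0.05 and 0.13 at its brightest probe set. Cnn2, calponin 2, which many cell types besides smooth muscle express, differed by -0.03 and 0.05. Of the 10 thin filament genes, 4 rose in WT over IL4R KO, 1 in transgenic over IL4R KO and 1 in transgenic over WT by their brightest probe sets, against 2.14%, 0.0517% and 0.595% of all genes. The medians over the 10 were 0.31, 0.45 and 0.13.

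All 3 myosin subunits were higher in both receptor-bearing genotypes than in IL4R KO, without overlap. Myh11, the smooth muscle myosin heavy chain (1448962_at), read 10.71 and 10.75 in IL4R KO, 11.38 and 11.27 in WT, with 11.38 and 11.50 in the transgenic pools. WT and transgenic pools met at 11.38, and both lay above IL4R KO. Myh11 rose 1.51-fold in WT over IL4R KO (log2 difference 0.59, SE 0.08, limma adjusted p = 0.017). In transgenic over IL4R KO it differed by 0.71 (adjusted p = 0.085), which did not pass. Its second probe set, 1418122_at, was dim, overlapped between genotypes and differed by -0.05 and 0.12.

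Myl9, the regulatory light chain that is phosphorylated when smooth muscle contracts, read 11.35 and 11.52 in IL4R KO, 11.91 and 11.94 in WT, with 12.09 and 12.07 in the transgenic pools. The genotypes did not overlap. Myl9 rose by 0.49 in WT over IL4R KO (SE 0.08, limma adjusted p = 0.031), and differed by 0.64 in transgenic over IL4R KO (adjusted p = 0.11). Myl6, the essential light chain, differed by 0.15 and 0.28 and did not pass. The medians of the 3 subunits were 0.49 in WT over IL4R KO, 0.64 in transgenic over IL4R KO and 0.13 in transgenic over WT.

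**Figure D3:**
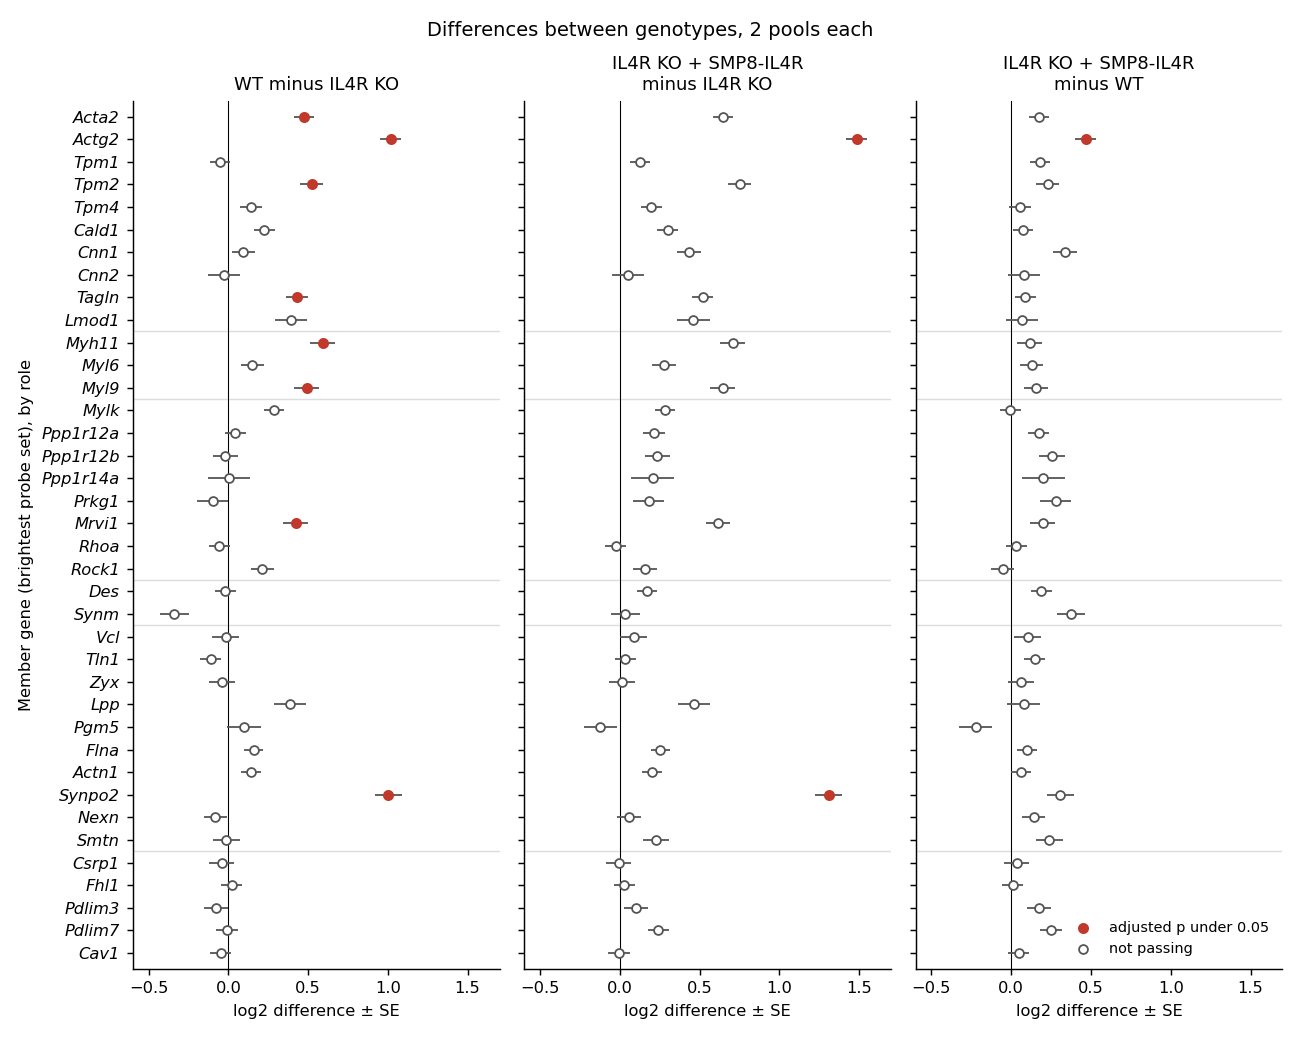
Log2 differences between genotypes on the x axes, with the SE of the limma fit over 2 pools per genotype, for the brightest probe set of each member gene. Filled red points have an adjusted p under 0.05: 8 genes in WT minus IL4R KO, 2 in transgenic minus IL4R KO and 1 in transgenic minus WT.

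Among the regulators of myosin phosphorylation, Mrvi1 and Mylk had probe sets that rose. Mrvi1 encodes IRAG, the substrate through which cGMP-dependent kinase restrains calcium release. It read 7.36 and 7.48 in IL4R KO, 7.90 and 7.78 in WT, with 8.03 and 8.04 in the transgenic pools (1459665_s_at), close to the median of all values at 7.10. The genotypes did not overlap. Mrvi1 rose by 0.42 in WT over IL4R KO (SE 0.08, limma adjusted p = 0.046), a call that held in 2 of 12 alternatives. It differed by 0.62 in transgenic over IL4R KO (adjusted p = 0.12).

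Mylk encodes myosin light chain kinase and also a non-muscle form that endothelium and epithelium express. The probe set 1425504_at read 8.71 and 8.75 in IL4R KO, 9.18 and 9.18 in WT, with 9.00 and 9.05 in the transgenic pools. WT was highest here, and IL4R KO lowest. It rose by 0.44 in WT over IL4R KO (SE 0.06, limma adjusted p = 0.023), and differed by 0.29 in transgenic over IL4R KO (adjusted p = 0.22) and -0.15 in transgenic over WT (adjusted p = 0.30). The brightest Mylk probe set, 1425506_at, read 12.05 and 12.11, 12.38 and 12.36, and 12.36 and 12.37, with differences of 0.29 and 0.28 over IL4R KO that did not pass.

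The genes that control the phosphatase showed smaller differences. Rhoa, a small GTPase that acts through the kinase Rock1 to restrain the phosphatase, read 12.69 and 12.76 in IL4R KO, 12.64 and 12.70 in WT, with 12.69 and 12.70 in the transgenic pools, which all overlapped. Its differences were -0.06, -0.03 and 0.03 in the 3 comparisons (SE 0.07). Rock1, which phosphorylates the phosphatase's targeting subunit, differed by 0.21 in WT and 0.16 in transgenic over IL4R KO at its brightest probe set. The phosphatase targeting subunits Ppp1r12a and Ppp1r12b differed by 0.04 and -0.02 in WT over IL4R KO and by 0.22 and 0.24 in transgenic over IL4R KO. All 4 Ppp1r12a probe sets were higher in the transgenic pools than in IL4R KO without overlap, by 0.17 to 0.22.

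Ppp1r14a (CPI-17), an inhibitor of the phosphatase, differed by 0.00 in WT and 0.21 in transgenic over IL4R KO, and its IL4R KO pools read 10.18 and 10.56, the widest apart of the 3 genotypes. Prkg1, the cGMP-dependent kinase that relaxes smooth muscle, differed by -0.10 and 0.18 at its brightest probe set. Its other probe set, 1449876_at, was 0.28 lower in WT than in IL4R KO and 0.43 higher in transgenic than in WT (limma adjusted p = 0.061). Without either IL4R KO pool it passed in transgenic over WT (adjusted p = 0.014). Of the 8 regulators measured, 1 rose in WT over IL4R KO by its brightest probe set, against 2.14% of all genes. In the other comparisons 0 passed by limma. At an unadjusted p under 0.05, 4 were higher in each of these, against 6.54% and 9.66% of all genes.

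The intermediate filament genes did not pass in any comparison. Desmin (Des), which links dense bodies and is also abundant in heart and skeletal muscle, read 10.64 and 10.62 in IL4R KO, 10.62 and 10.60 in WT, with 10.77 and 10.83 in the transgenic pools. The transgenic pools were above the other 4, and WT and IL4R KO overlapped. The differences were -0.02 in WT over IL4R KO, 0.17 in transgenic over IL4R KO and 0.19 in transgenic over WT, with limma adjusted p of 0.90, 0.35 and 0.22. Synemin (Synm), a partner of desmin, read 9.41 and 9.52, 9.05 and 9.20, and 9.44 and 9.57. WT was lowest, by 0.34 against IL4R KO (adjusted p = 0.11) and by 0.37 against the transgenic group (adjusted p = 0.11). Without either IL4R KO pool Synm passed in transgenic over WT (adjusted p = 0.045).

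Among the genes that anchor actin, Synpo2 and Lpp stood apart. Synpo2 encodes myopodin, an actin-bundling protein of muscle. Its probe set 1435399_at read 8.38 and 8.52 in IL4R KO, 9.51 and 9.40 in WT, with 9.71 and 9.81 in the transgenic pools, with no overlap between genotypes. It rose by 1.00 in WT over IL4R KO (SE 0.08, limma adjusted p = 0.0035) and by 1.31 in transgenic over IL4R KO (SE 0.08, adjusted p = 0.018), and it differed by 0.31 in transgenic over WT (adjusted p = 0.15). The other Synpo2 probe sets did not follow. 1450828_at differed by 0.01 and -0.01 from IL4R KO, 1452879_at by -0.27 and -0.28, and 1441206_at was dim.

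Lpp encodes a LIM protein of focal adhesions that is abundant in smooth muscle, and it had 8 probe sets. Its brightest, 1436714_at, read 11.78 and 11.52 in IL4R KO, 12.10 and 11.98 in WT, with 12.09 and 12.14 in the transgenic pools. WT and transgenic pools overlapped and lay above IL4R KO, by 0.39 and 0.47. The probe set that passed in WT over IL4R KO, 1438271_at, read 8.47 and 8.41, 8.80 and 8.87, and 8.92 and 8.82, a rise of 0.39 (SE 0.07, limma adjusted p = 0.048) that held in 5 of 13 alternatives. The 7 tested Lpp probe sets were higher in WT than in IL4R KO by 0.24 to 0.46 and higher in transgenic than in IL4R KO by 0.30 to 0.59, all without overlap. They read 1 gene and are not separate evidence.

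**Figure D4:**
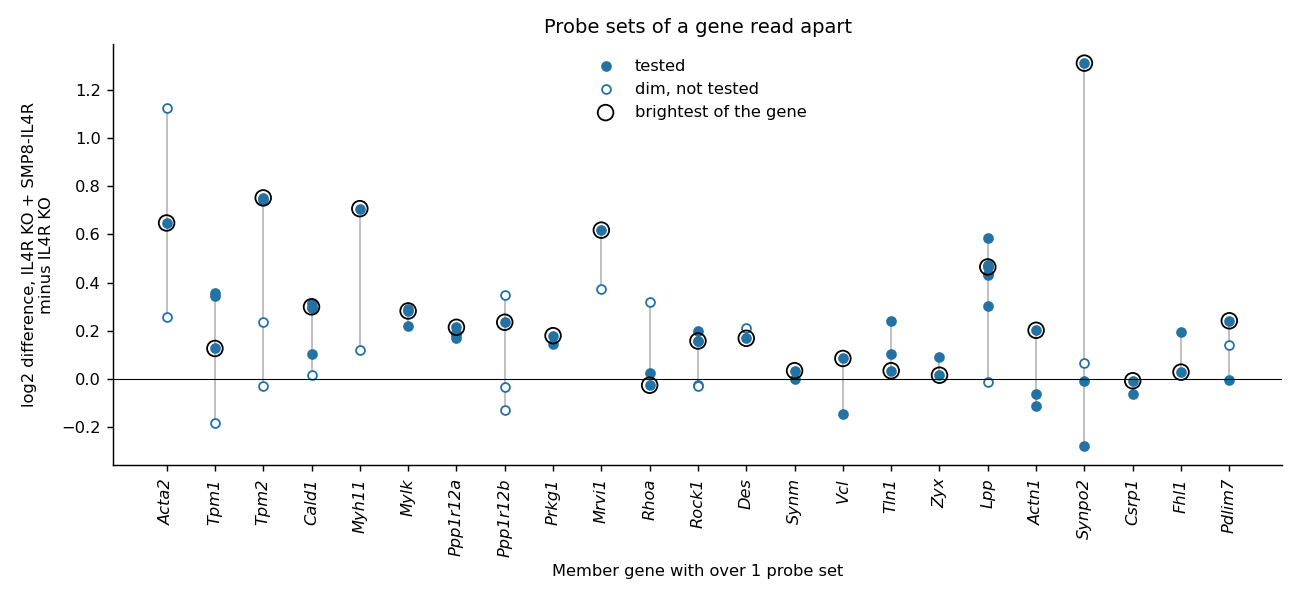
Log2 difference of transgenic minus IL4R KO on the y axis for each probe set of the 23 member genes with over 1 probe set. Rings mark the brightest probe set of a gene and open points those too dim to test. Synpo2 spans the widest range, from -0.28 to 1.31, while the tested Lpp probe sets lie between 0.30 and 0.59.

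The remaining anchoring genes did not pass. Vinculin (Vcl), a core protein of the dense plaque, read 12.11 and 12.30 in IL4R KO, 12.14 and 12.24 in WT, with 12.29 and 12.30 in the transgenic pools. IL4R KO overlapped both other genotypes, and the transgenic pools lay above WT. The differences of Vcl were -0.02, 0.09 and 0.10 (SE 0.09). Flna (filamin A), an actin cross-linker, differed by 0.16 in WT and 0.26 in transgenic over IL4R KO, and Actn1 (alpha-actinin 1) by 0.14 and 0.20 at its brightest probe set, without overlap. The other Actn1 probe sets differed by 0.01 and -0.06 (1427385_s_at) and by -0.01 and -0.11 (1452415_at). Smtn (smoothelin), a marker of contractile smooth muscle, differed by -0.01 and 0.23. Talin 1 (Tln1), zyxin (Zyx) and nexilin (Nexn) lay between -0.11 and 0.06 in both comparisons with IL4R KO at their brightest probe sets. A second Tln1 probe set, 1457782_at, was 0.24 higher in transgenic than in IL4R KO pools without overlap (limma adjusted p = 0.25). Pgm5 (aciculin), which binds vinculin, was 0.22 lower in transgenic than in WT pools (limma adjusted p = 0.34).

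None of the 5 LIM domain and caveola genes passed by limma in any comparison. Caveolin 1 (Cav1), the coat protein of caveolae that endothelium and alveolar epithelium also express strongly, read 13.52 and 13.58 in IL4R KO, 13.53 and 13.48 in WT, with 13.51 and 13.58 in the transgenic pools. These overlapped, and the differences were -0.05, 0.00 and 0.05 (SE 0.07). Fhl1 and Csrp1, LIM proteins of muscle, lay between -0.04 and 0.04 at their brightest probe sets in all 3 comparisons. Pdlim7, a PDZ and LIM protein, was 0.24 higher in transgenic than in IL4R KO and 0.25 higher than in WT, without overlap, and Pdlim3 0.10 and 0.17 higher. The unadjusted p was under 0.05 for 0 of the 5 genes in WT over IL4R KO and for 1, Pdlim7, higher in each other comparison, against 6.54% and 9.66% of all genes.

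The order of the 3 genotypes was read for each gene from its pools. In 13 of the 38 genes (34.2%) both transgenic pools lay above both WT pools, and both WT pools above both IL4R KO pools, against 2.85% of all genes tested. They were Acta2, Actg2, Tpm2, Cald1, Cnn1, Tagln and Lmod1 of the thin filament, the myosin light chains Myl6 and Myl9, Mrvi1, and Flna, Actn1 and Synpo2 of the anchoring group. In 18 genes (47.4%, against 10.4%) both receptor-bearing genotypes lay above IL4R KO, which adds Tpm4, Myh11, Mylk, Rock1 and Lpp. Taken by comparison, 18 genes were higher and 3 lower in WT than in IL4R KO without overlap, against 22.2% and 29.4% of all genes. For transgenic against IL4R KO the counts were 27 and 0, against 21.3% and 20.3%. For transgenic against WT they were 27 and 2, against 38.6% and 22.9%. Of the 13 genes in this order, the step from WT to transgenic passed for Actg2, and for the other 12 it did not.

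Different probe sets of 1 gene could point in opposite directions. Of the 23 genes with over 1 probe set, signs differed in 11 for WT minus IL4R KO, 11 for transgenic minus IL4R KO and 12 for transgenic minus WT. Dim probe sets were part of this: 17 of the 89 lay at or under the median of all values and were not tested. In addition, 10 of the 89 end in x_at or s_at, a mark for probes that can bind related transcripts, among them the brightest Acta2 and the Mrvi1 probe set. Myh11, Tpm1, Cald1, Mylk and Synpo2 are known to be spliced into several forms, and which form each probe set reads was not tested.

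Of other genes of the same pathways, Myocd and Prkcd passed in a comparison. Myocd, the coactivator through which serum response factor drives smooth muscle genes, read 7.82 and 7.84 in IL4R KO, 8.98 and 8.74 in WT, with 8.88 and 9.05 in the transgenic pools. WT and transgenic pools overlapped and lay above IL4R KO. Myocd rose by 1.03 in WT over IL4R KO (limma adjusted p = 0.0067) and by 1.13 in transgenic over IL4R KO (adjusted p = 0.0495), and was not called in transgenic over WT. Of the other 7 genes of that list, Srf, Mkl1, Mkl2, Mef2c, Gata6, Klf4 and Elk1, 0 passed in any comparison, and 0 had an unadjusted p under 0.05. The lowest p in each comparison were those of Mkl1 (-0.18) and Mkl2 (-0.15) in WT over IL4R KO, Mef2c (0.14) and Elk1 (-0.06) in transgenic over IL4R KO, and Srf (0.15) and Gata6 (0.22) in transgenic over WT.

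Of 21 tested genes for calcium handling and kinase signalling to myosin, Prkcd, protein kinase C delta, rose by 0.42 in WT over IL4R KO (limma adjusted p = 0.040) and fell by 0.52 in transgenic over WT (adjusted p = 0.026). None of the 21 passed in transgenic over IL4R KO, where 6 had an unadjusted p under 0.05, against 6.54% higher and 4.98% lower among all genes. Higher were Pde5a, which degrades cGMP (0.40), Cacna1c, a subunit of the L-type calcium channel (0.33), and Camk2d (0.22). Lower were Pln (-0.30), Atp2a2 (-0.25) and Dapk3 (-0.18). In WT over IL4R KO 7 had an unadjusted p under 0.05, against 9.02% higher and 12.4% lower among all genes. Prkcd and Cacna1c (0.32) were higher there. Pln (-0.43), Atp2a2 (-0.34), Ppp1r12c (-0.23), Dapk3 (-0.22) and Arhgef1 (-0.19) were lower. Of 29 further actin cytoskeleton genes, among them the non-muscle actins Actb and Actg1 and the non-muscle myosins Myh9 and Myh10, 0 passed in any comparison. At an unadjusted p under 0.05 there were 6 in WT over IL4R KO, against 9.02% higher and 12.4% lower among all genes. Fhl2 (0.31) was higher and the others were lower, led by Pdlim2 (-0.33) and Sorbs2 (-0.25). There were 0 in transgenic over IL4R KO, where Palld (0.17) and Svil (0.13) had the lowest p. In transgenic over WT there were 7, against 9.66% higher and 7.21% lower. Fhl2 (-0.43) had the lowest p and was lower, while the others were higher, led by Fermt2 (0.22). Of the other 4 caveola genes, Cav2, Ptrf, Sdpr and Prkcdbp, 0 passed. In transgenic over WT 2 were higher at an unadjusted p under 0.05 (Prkcdbp at 0.25 and Ptrf at 0.27), against 9.66% of all genes. Over the 62 tested genes of the 4 lists, 2 passed in WT over IL4R KO, against 2.14% higher and 1.51% lower among all genes. In transgenic over IL4R KO 1 passed, against 0.0517% and 0.0259%, and in transgenic over WT 1, against 0.595% and 1.69%. In each comparison fewer of the 62 passed without any single transgenic or WT pool, as over all probe sets tested. More passed without either IL4R KO pool in WT over IL4R KO and in transgenic over WT, again as over all probe sets tested.

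Summed levels of marker genes of other cell types, some of which share contractile genes, also differed between genotypes. Against IL4R KO, the member sum was higher in both other genotypes, and the heart muscle, skeletal muscle, mesothelial and adipocyte sums were lower in both. The fibroblast sum was higher in WT. The pericyte sum was lower in WT and higher in the transgenic pools, and the dim tracheal cartilage sum the reverse. In transgenic against WT pools, the heart muscle, skeletal muscle, pericyte, mesothelial, endothelial and adipocyte sums were higher, as was the member sum. The fibroblast and tracheal cartilage sums were lower there. Levels were summed per pool on the linear scale. The 38 members summed to 116493 and 120935 in the IL4R KO pools, 130630 and 130864 in WT, and 139688 and 141021 in the transgenic pools. The 11 heart muscle markers summed to 24381 to 29042 in IL4R KO, 15961 to 16954 in WT and 19586 to 21191 in the transgenic pools, and 8 of 11 fell in WT over IL4R KO by limma, against 1.51% of all genes. In transgenic over IL4R KO 0 of 11 passed and 9 had an unadjusted p under 0.05, against 6.54% higher and 4.98% lower among all genes. In transgenic over WT, Myl7, the atrial light chain, rose by 0.54 and Nppa, the atrial natriuretic peptide, fell by 1.55. The 7 skeletal muscle markers summed to 2301 to 2891 in IL4R KO, 1478 to 1510 in WT and 1826 to 1909 in the transgenic pools, with Ckm and Mb falling in WT over IL4R KO. Mylpf, Tnnt3, Tnnc2 and Myh4 were too dim to test, so this sum rests mostly on Ckm, Mb and Acta1. The single markers ranged from -0.97 to 0.09 in WT over IL4R KO and from -0.73 to 0.41 in transgenic over IL4R KO. Several members, among them Des, Synm, Nexn, Fhl1, Pdlim3, Pgm5 and Synpo2, are also expressed in heart or skeletal muscle. The part of heart and skeletal muscle in the values of any member, or of the pathway genes such as Pln and Atp2a2, was not tested.

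Pericytes, the mural cells of small vessels, express several contractile genes. Their 6 markers summed to 7018 to 7257 in IL4R KO, 6857 to 6981 in WT and 8077 to 8570 in the transgenic pools. Of these, Rgs5, a regulator of G protein signalling, rose by 1.06 in WT and by 1.17 in transgenic over IL4R KO. The other 5, Pdgfrb, Cspg4, Notch3, Abcc9 and Kcnj8, did not pass, at -0.40 to 0.01 and -0.11 to 0.20. The 7 fibroblast markers summed to 30336 to 31134 in IL4R KO, 34526 to 35248 in WT and 30204 to 30805 in the transgenic pools. In WT over IL4R KO the collagens Col1a1 and Col1a2 rose and Dcn fell. Mesothelial markers were highest in IL4R KO (6831 to 7380, against 5140 to 5141 in WT and 6051 to 6653 in the transgenic pools), as were the 4 adipocyte markers (1639 to 1864, against 480 to 562 and 734 to 773). The 5 endothelial markers summed to 18713 to 21422, 18034 to 18807 and 19091 to 19549, and 0 passed in any comparison, with 0 at an unadjusted p under 0.05. The 5 tracheal cartilage markers were too dim to test and summed to 297 to 309 in IL4R KO, 355 to 382 in WT and 281 to 295 in the transgenic pools. The part of these lists in the member values was not tested.

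**Figure D5:**
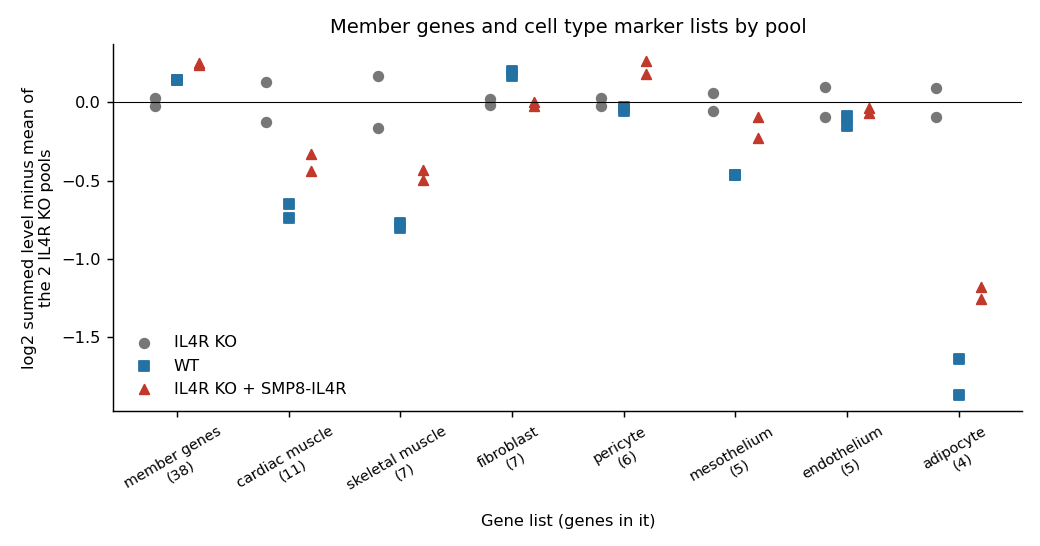
Summed linear level of the 38 member genes and of 7 marker lists in each pool, as log2 minus the mean of the 2 IL4R KO pools on the y axis. The member sum is highest in the transgenic pools (139688 and 141021), while heart muscle, skeletal muscle and adipocyte sums are highest in the IL4R KO pools.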

How the data were processed

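The deposited table held 1 log2 value per probe set and array. The submitters' processing notes name RMA, a method that subtracts background, equalises the arrays by quantiles and combines the probes of a probe set. Which version of RMA the authors ran is not given in the sources used here. Values ran from 2.63 to 14.8, and array medians from 7.08 to 7.11. RMA compresses low signals, so folds of dim probe sets may be understated, and a level of 1 probe set says nothing against the level of another. Arrays have no depth, and their number limits the precision.

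Of 45101 probe sets, 64 were array controls and stayed out of all counts. Of the rest, 34945 had 1 gene in the platform annotation, 932 had several and 9160 had none. A probe set was tested if its mean over the 6 arrays lay above the median of all values, 7.10, which left 22510. The 3 genotypes were fitted together over all 6 arrays with limma 3.58.1 (R 4.3.3) with 1 shared spread (3 residual and 3.26 prior degrees of freedom), and p-values were adjusted by Benjamini-Hochberg over all probe sets tested, with a threshold of 0.05. Every adjusted p comes from that fit unless a left-out pool is named. In a fit that leaves a genotype with 1 pool, that pool is assumed to vary like the others. The code was tested on simulated data.

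The members and gene lists were chosen with earlier results of these data known, so no list was tested, and counts of called members are given beside the share of all features called. Values in every pool are given for members with a passing probe set and for the gene of each role with the highest probe set value, a choice for display that ranks no genes, and Cnn1 and Synm were added after their values were seen. Of the pathway lists, passing genes are named, or those with the lowest p. For calcium handling and kinase signalling, genes with an unadjusted p under 0.05 against IL4R KO are named too. Some genes of the pathway and marker lists are not reported here, and protein sequences were not used here. Alternatives covered the filter, the variance model, the arrays fitted, the choice of probe set, centring, the replicate number and single pools.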

Additional observations from a re-analysis of the deposited data

How the results depend on the processing

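No called member difference reversed: of the single probe set values under alternatives, 2790 kept their side of the threshold, 80 passed newly, 79 no longer passed and 0 reversed. Most of the values that kept their side belonged to probe sets that did not pass in the full fit. All 79 losses fell on the 11, 3 and 1 probe sets that passed there in the 3 comparisons. Counts of calls depended on the fit, over all probe sets tested as well as for members and pathway genes. With only the 4 arrays compared, WT minus IL4R KO gave 2 member probe sets and 2 genes, transgenic minus IL4R KO 0 and 0, and transgenic minus WT 5 and 3. Of all 22510 probe sets, 284, 0 and 1738 passed in that fit, against 701, 12 and 431 in the full fit. Leaving out 1 pool of the genotype not compared gives this same fit, since a genotype with 1 pool adds nothing to the spread. It is not a separate alternative. For transgenic minus IL4R KO, the stricter filter gave 6 member probe sets and 5 genes, among 11 called of all 11215 probe sets. The intensity trend with a robust prior gave 8 and 7, among 24 called of all 22510. Without IL4R KO pool 1 and WT pool 2, more members passed in this comparison and in transgenic minus WT, as over the whole array. With 1 row per gene 4 genes passed in transgenic minus IL4R KO, among 12 called of all 11861. With the median of a gene's probe sets 1 passed there, among 10 called of all 10117, and 3 in WT minus IL4R KO, among 448. Leaving out single pools gave 1 to 19 probe sets and 1 to 10 genes in WT minus IL4R KO, 0 to 17 and 0 to 10 in transgenic minus IL4R KO, and 0 to 5 and 0 to 3 in transgenic minus WT. The medians were 0.0330 to 0.115, 0.189 to 0.241 and 0.120 to 0.145 (log2). For transgenic minus WT the median was 0.121 without x_at and s_at probe sets and 0.0930 by the median of probe sets.

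Pathway genes passing in WT minus IL4R KO numbered 1 without a filter, 4 with the intensity trend, 1 with the 4 arrays, 1 with the block, and 0 to 6 without single pools. In transgenic minus IL4R KO they numbered 0 without a filter, with the stricter filter, with the 4 arrays, with the block and after centring, and 0 to 1 without single pools. In transgenic minus WT they numbered 3 with the 4 arrays and 0 to 3 without single pools. The labels do not say that replicate numbers pair pools. Over the probe sets tested, the difference of pool 1 minus pool 2 was compared between genotypes by its correlation, which was weak. The correlation was 0.06 for transgenic and IL4R KO, -0.12 for transgenic and WT, and -0.14 for IL4R KO and WT. With the replicate block, 9, 2 and 1 member probe sets and 7, 2 and 1 genes passed in the 3 comparisons. Of all 22510 probe sets, 673, 15 and 401 did. With the WT numbers crossed, chosen after seeing the data, the block gave 5, 0 and 0 member probe sets, 5, 0 and 0 genes, and 1, 0 and 1 pathway genes. It called 394, 0 and 266 of all probe sets. Fits with fewer arrays or a block have fewer residual degrees of freedom than the 3 of the full fit.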
